A study of Mus musculus with 34 samples.

Results

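The genes described here are the G1 cyclins, the kinases that they activate, and the inhibitor and the pocket protein that hold this system back. They were taken from the deposited gene count table by symbol, which gave 10 of its 78298 genes. They are the D-type cyclins *Ccnd1* (ENSMUSG00000070348), *Ccnd2* (ENSMUSG00000000184) and *Ccnd3* (ENSMUSG00000034165), the E-type cyclins *Ccne1* (ENSMUSG00000002068) and *Ccne2* (ENSMUSG00000028212), the kinases *Cdk2* (ENSMUSG00000025358), *Cdk4* (ENSMUSG00000006728) and *Cdk6* (ENSMUSG00000040274), the kinase inhibitor *Cdkn1b* (ENSMUSG00000003031) and the retinoblastoma gene *Rb1* (ENSMUSG00000022105). The table has 11 lines with these symbols. A second line named Rb1 carries the identifier of *Rbx1*, a subunit of ubiquitin ligases, because the letter x is missing from the symbols of the table, and it was left out. All 10 genes were among the 14980 genes that passed the filter on low counts, and each of them had counts in every liver.

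Bulk RNA-seq was done on whole liver from young adult male mice of C57/Bl6 background. Partial hepatectomy (PHx) removed the left lateral and median lobes, and livers were taken 6 h or 24 h later, or from untreated mice (0 h). WT mice carried loxP-flanked *Sirt1* alleles without Cre recombinase and gave 6 livers at 0 h, 6 at 6 h and 4 at 24 h. SIRT1intKO mice carried floxed *Sirt1* together with Cre driven by the *Villin* promoter, so that *Sirt1* is lost from the epithelium of the intestine while hepatocytes keep it, and gave 6, 5 and 7 livers. Both genotypes thus carried the floxed alleles.

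D-type cyclins are the part of the cell cycle that growth factors switch on. They bind CDK4 and CDK6, and these kinases start to phosphorylate RB1, which otherwise holds the E2F transcription factors inactive. Cyclin E with CDK2 completes the phosphorylation, the E2F factors are released and the genes of DNA replication are transcribed, while p27, the product of *Cdkn1b*, binds and blocks cyclin E with CDK2. After PHx, cyclin D1 is the D-type cyclin known for its induction in hepatocytes as they leave quiescence.

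The counts assigned to genes ranged from 14892122 to 23480492 per liver. Levels are given as CPM, which are counts scaled to a common library total with the trimmed mean of M-values, and a quasi-likelihood model of edgeR fitted to all 34 livers gave the tests. Rose and fell are used for an adjusted p under 0.05. The adjusted p, written FDR, comes from the Benjamini-Hochberg method over all genes tested. A log2 fold change is followed by its SE. Hepatocyte markers, a list of 7 genes that includes *Alb* and *Ttr*, summed to between 30500 and 80200 CPM in every liver. In whole tissue, fewer cells of a type and less RNA per cell cannot be told apart. Hepatic *Sirt1* cannot serve as a check of the genotype labels, because the deletion lies outside the liver. The WT livers held 8.35 to 23.1 CPM of it and the SIRT1intKO livers 6.92 to 16.3 CPM, and its lower mean in SIRT1intKO livers at 24 h did not pass the test (log2 fold change -0.65, SE 0.22, edgeR FDR = 0.0726). The libraries of the 0 h livers are numbered in a series apart from those of the livers after PHx, so a difference in handling and the effect of PHx cannot be told apart, whereas 24 h against 6 h lies within a single series.

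The 4 WT livers at 24 h did not resemble each other. Across all genes tested, replicates 1 and 2 correlated with each other at r = 0.953 and replicates 3 and 4 at r = 0.983, against 0.889 to 0.918 between the pairs. Replicates 1 and 2 resembled the SIRT1intKO livers at 24 h best, with median r of 0.951 and 0.925, replicate 3 resembled the WT livers at 6 h (0.956) and replicate 4 the SIRT1intKO livers at 0 h (0.956). In SIRT1intKO, replicate 5 at 24 h resembled the WT livers at 6 h (0.956) more than its own group (0.948). Neutrophil markers, a list of 7 genes that includes *S100a8* and *Ly6g*, summed to 112 and 94.6 CPM in WT replicates 1 and 2 and to 13.9 and 7.72 CPM in replicates 3 and 4. The tests of the 10 genes that involve the WT livers at 24 h were therefore repeated without either pair, a comparison chosen after the livers had been seen.

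*Ccne1* and *Ccnd1* had the largest changes of the 10 genes in each comparison with 0 h. Both rose over 0 h at both times in both genotypes, *Cdk4* rose slightly at 6 h in both, and *Ccne2*, *Cdk2*, *Cdkn1b* and *Rb1* passed the test in no comparison with 0 h. At 6 h, 4 of the 10 genes passed the test in WT livers, where 37.4% of all genes tested did so: 3 rose, against 18.9% of all genes, and 1 fell, against 18.5%. In SIRT1intKO livers at 6 h it was also 4 of 10, against 38.4%, with 3 that rose (20.9% of all genes) and 1 that fell (17.6%). At 24 h, 4 of 10 passed in WT livers, against 34.1%, with 3 that rose (19.5%) and 1 that fell (14.6%), and 5 of 10 in SIRT1intKO livers, against 50.2%, with 4 that rose (26.2%) and 1 that fell (24%). The totals lie near those of all genes, and the comparisons at 6 h and 24 h share their 0 h livers. Between 24 h and 6 h, 2 of 10 passed in WT livers against 16.5% of all genes, both of which rose (10%, with 6.43% of all genes lower), and in SIRT1intKO livers 3 passed against 27.6%, of which 2 rose (13.2%) and 1 fell (14.4%). With the further condition of an absolute log2 fold change over 1, which the study used, *Ccnd1* and *Ccne1* were left in each comparison with 0 h, against 15.6% and 15.7% of all genes in WT livers and 16.6% and 23% in SIRT1intKO livers at 6 h and 24 h. Between 24 h and 6 h that left *Cdk6* in WT livers, against 7.16%, and *Ccnd1* in SIRT1intKO livers, against 10.6%. The median log2 fold change of the 10 genes was 0.04 and 0.33 in WT livers and 0.05 and -0.03 in SIRT1intKO livers at 6 h and 24 h, where the medians of all genes were 0.02, 0.02, 0.01 and 0.04. Leaving out single livers moved some counts further than 1.5 times. In WT livers at 6 h against 0 h, 2 genes were left without 6 h replicate 2 or 0 h replicate 3. In WT livers at 24 h against 0 h, 2 were left without 24 h replicate 1 or 2. Against 6 h, 1 was left without 24 h replicate 2. In SIRT1intKO livers at 24 h against 6 h, 1 was left without 6 h replicate 1 or 4. The share of all genes that passed in these fits is not given.

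**Figure D1:**
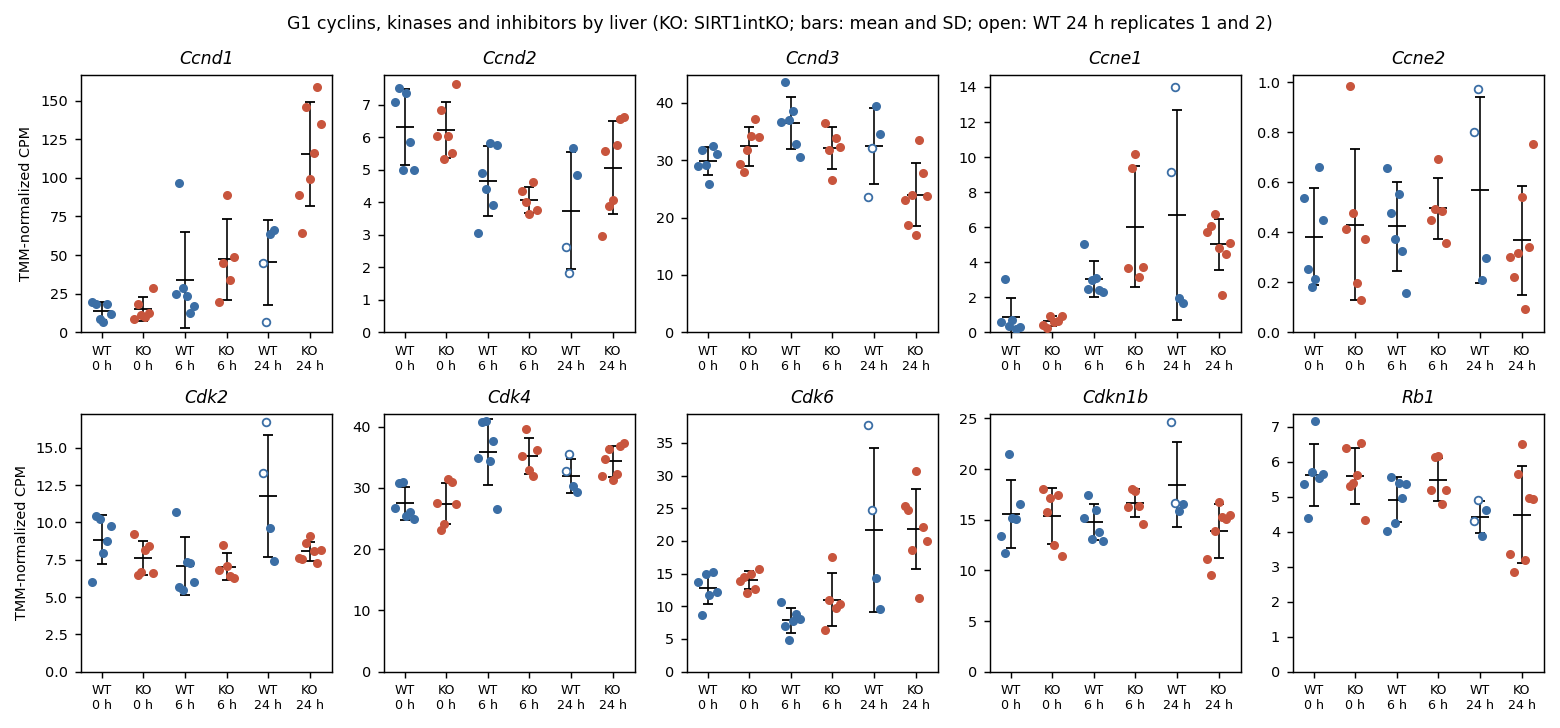
Level of each of the 10 genes in each liver (y axis, TMM-normalized CPM from 0, a different range in each panel) by genotype and time (x axis; KO stands for SIRT1intKO). Points are livers, bars the mean and SD, and open points the WT 24 h replicates 1 and 2. *Ccnd1* climbs to between 64.1 and 159 CPM in the 7 SIRT1intKO livers at 24 h, and the WT 24 h livers separate into pairs for *Ccne1*, *Cdk6* and *Ccnd2*.

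**Figure D2:**
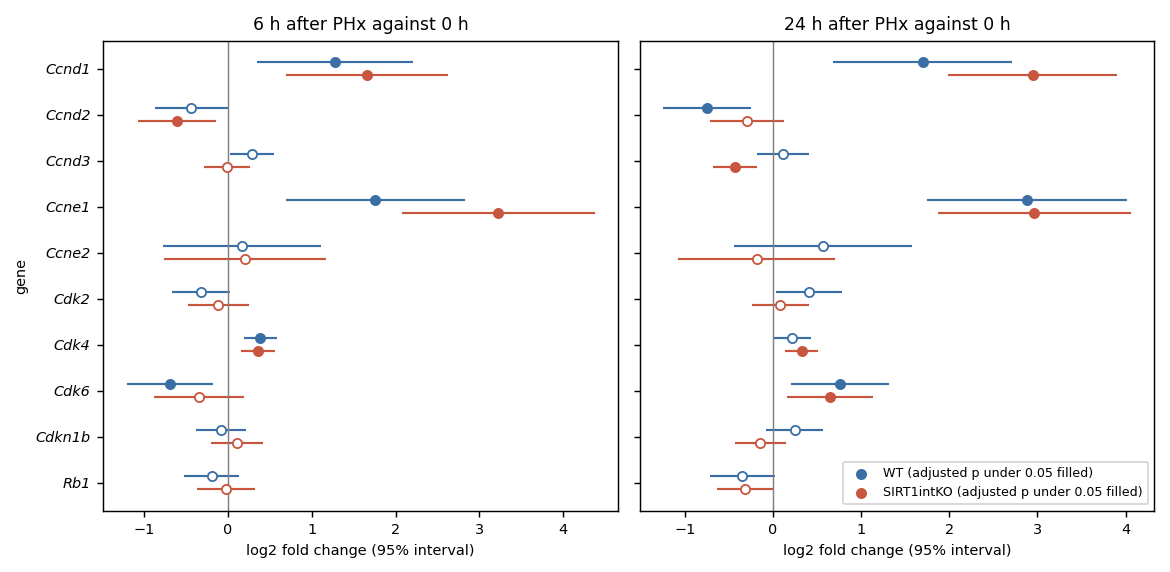
Log2 fold change from 0 h (x axis) of each gene (y axis) at 6 h (left) and 24 h (right) in WT and SIRT1intKO livers, with 95% intervals as lines. Filled points have an adjusted p under 0.05. *Ccnd1* and *Ccne1* lie above 0 in all 4 comparisons, and the intervals of *Cdkn1b* and *Rb1* include 0 in all 4.

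*Ccnd1*, the cyclin whose level marks the entry into G1, was at 6.78 to 19.8 CPM in untreated WT livers (median 15.2, n = 6). At 6 h the WT livers ran from 12.5 to 96.4 CPM (median 24.1, n = 6), and at 24 h the 4 replicates were at 45, 6.86, 63.8 and 66.2 CPM. Of the 6 livers at 6 h, 4 lay above every untreated liver, and at 24 h 3 of 4 did, while replicate 2 was as low as the untreated livers. *Ccnd1* rose by a log2 fold change of 1.27 (SE 0.46, edgeR FDR = 0.0277) at 6 h and of 1.70 (SE 0.50, edgeR FDR = 0.00893) at 24 h. The 6 h change rested on replicate 2, the liver at 96.4 CPM: without it the log2 fold change was 0.59 (edgeR FDR = 0.28). The call was also lost without 0 h replicate 3, 4 or 6, with values of 1.16, 1.13 and 1.22 and edgeR FDRs of 0.063, 0.0656 and 0.0541. The 24 h change was 2.21 (edgeR FDR = 0.00867) without replicates 1 and 2, and 0.89 (edgeR FDR = 0.224) without replicates 3 and 4.

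In SIRT1intKO livers *Ccnd1* was at 8.52 to 29 CPM untreated (median 12.1, n = 6), at 19.4, 44.8, 88.9, 34 and 48.7 CPM at 6 h, and at 64.1 to 159 CPM at 24 h (median 116, n = 7). Every liver at 24 h lay above every untreated liver, and 5 of 7 above every liver at 6 h. The log2 fold change from 0 h was 1.65 (SE 0.48, edgeR FDR = 0.00648) at 6 h and 2.95 (SE 0.47, edgeR FDR = 8.14e-06) at 24 h, which is 7.71-fold. Both calls held when any single liver was left out. From 6 h to 24 h it rose by 1.29 (SE 0.47, edgeR FDR = 0.0378), a call lost in 7 of the 12 fits without 1 liver. These were the fits without 6 h replicate 1, 2, 4 or 5 and without 24 h replicate 3, 6 or 7, and their log2 fold changes ran from 1.11 to 1.32. In WT livers 24 h against 6 h gave 0.42 (SE 0.49, edgeR FDR = 0.602), 0.94 (edgeR FDR = 0.288) without 24 h replicates 1 and 2 and -0.37 (edgeR FDR = 0.682) without replicates 3 and 4.

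*Ccnd2*, a D-type cyclin that is sparse in resting liver, went the other way. It was at 4.98 to 7.51 CPM in untreated WT livers (median 6.48, n = 6), at 3.06 to 5.83 CPM at 6 h (median 4.66, n = 6), and at 2.64, 1.83, 5.66 and 4.83 CPM at 24 h. Replicates 1 and 2 at 24 h were under every other WT liver, and replicate 3 lay among the untreated ones. The fall at 24 h passed the test (log2 fold change -0.75, SE 0.24, edgeR FDR = 0.0174), but not without replicate 1 (-0.61, edgeR FDR = 0.0852), without replicate 2 (-0.52, edgeR FDR = 0.116) or without both (-0.27, edgeR FDR = 0.618), whereas without replicates 3 and 4 it was -1.48 (edgeR FDR = 7.56e-05). In SIRT1intKO livers *Ccnd2* was at 5.32 to 7.64 CPM untreated (median 6.03, n = 6), at 4.36, 4.01, 3.65, 4.61 and 3.77 CPM at 6 h, and at 2.95 to 6.61 CPM at 24 h (median 5.58, n = 7). The 6 h livers were all below the untreated ones, and the 24 h livers overlapped with them. *Ccnd2* fell at 6 h by 0.61 on the log2 scale (SE 0.23, edgeR FDR = 0.0332). That call was lost without 0 h replicate 6 (-0.54, edgeR FDR = 0.072), 6 h replicate 3 (-0.57, edgeR FDR = 0.072) or 6 h replicate 5 (-0.61, edgeR FDR = 0.0519). At 24 h the log2 fold change was -0.29 (SE 0.20, edgeR FDR = 0.231). Markers of sinusoidal endothelium moved with *Ccnd2* in part. Of 6 genes that include *Stab2* and *Kdr*, 4 fell in WT livers at 24 h, against 14.6% of all genes. In SIRT1intKO livers at 6 h 2 of them fell, against 17.6%, and none was higher in these comparisons. Their sum was 93.9 to 142 CPM in untreated WT livers and 36.8, 51.2, 85.7 and 69.5 CPM in WT replicates 1 to 4 at 24 h, and it was 105 to 166 CPM in untreated SIRT1intKO livers and 66.4 to 132 CPM at 6 h. In SIRT1intKO livers at 24 h the change of *Ccnd2* did not pass the test. There 3 of these markers fell and 1 rose, against 24% and 26.2% of all genes, with a sum of 54.4 to 105 CPM. Kupffer cell markers moved with *Ccnd2* in part as well. Of 4 genes that include *Clec4f* and *Vsig4*, 3 fell in WT livers at 24 h. In SIRT1intKO livers 2 of the 4 fell at 6 h and 1 at 24 h, and none rose in these comparisons. None of the endothelial or Kupffer cell markers was at 0 throughout a group, and their part in the result was not tested.

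*Ccnd3*, another D-type cyclin, did not pass the test in WT livers in the fit to all livers and fell in SIRT1intKO livers at 24 h. In WT livers it was at 25.9 to 32.5 CPM untreated (median 30.2, n = 6), at 30.5 to 43.6 CPM at 6 h (median 36.8, n = 6), and at 23.6, 32.1, 39.4 and 34.6 CPM at 24 h. The log2 fold changes were 0.29 (SE 0.13, edgeR FDR = 0.0789) at 6 h and 0.12 (SE 0.14, edgeR FDR = 0.56) at 24 h, and the first passed the test without 6 h replicate 6 (0.34, edgeR FDR = 0.0457) and in a fit to the WT livers at 0 h and 6 h alone (0.32, edgeR FDR = 0.0131). The 24 h change was 0.31 (edgeR FDR = 0.319) without 24 h replicates 1 and 2 and -0.09 (edgeR FDR = 0.714) without replicates 3 and 4. SIRT1intKO livers were at 28 to 37.2 CPM untreated (median 32.9, n = 6), at 36.5, 31.7, 26.5, 33.9 and 32.3 CPM at 6 h, and at 17 to 33.6 CPM at 24 h (median 23.8, n = 7). At 24 h, 6 of 7 livers lay below every untreated liver. The exception was replicate 5, the liver whose profile was closer to the WT livers at 6 h. *Ccnd3* fell by 0.43 on the log2 scale against 0 h (SE 0.12, edgeR FDR = 0.00467), a call that held without any single liver. It fell by 0.42 against 6 h (SE 0.13, edgeR FDR = 0.0159), but not without 24 h replicate 2 (-0.35, edgeR FDR = 0.0523), 6 h replicate 1 (-0.35, edgeR FDR = 0.0667) or 6 h replicate 4 (-0.39, edgeR FDR = 0.0534).

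The makeup of the D-type cyclin mRNA was followed by dividing each gene's CPM by its length, so that levels could be compared between the 3 genes. With the summed length of all annotated exons, *Ccnd1* made up 40.6% ± 9.45 (SD, n = 6) of the D-type cyclin mRNA per length in untreated WT livers, 54.1% ± 13.6 (n = 6) at 6 h and 63.1% ± 23.8 (n = 4) at 24 h. In SIRT1intKO livers its share was 40.3% ± 10.5 (n = 6), 67.2% ± 13.8 (n = 5) and 87.8% ± 2.91 (n = 7). The 7 SIRT1intKO livers at 24 h lay between 83.3% and 90.8%, above the WT replicates 1 to 4 at that time, which were at 76.3%, 27.4%, 72.7% and 75.9%. The choice of length matters, because the annotated exons of *Ccnd3* sum to 8775 bases and its longest coding transcript has 2113. With the longest coding transcripts, the *Ccnd1* share was 19.3% ± 5.96 in untreated WT livers, 39.7% ± 19.5 in WT livers at 24 h and 71.1% ± 5.48 in SIRT1intKO livers at 24 h. The shares are descriptions of these livers and were not tested.

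*Ccne1*, the cyclin that activates CDK2 late in G1, had the largest estimated change of the 10 genes in all 4 comparisons with 0 h, next to *Ccnd1* in SIRT1intKO livers at 24 h. In untreated WT livers it was at 0.198 to 3.06 CPM (median 0.478, n = 6), where 5 of the 6 livers stood at 0.7 CPM or less and replicate 2 at 3.06 CPM. At 6 h the WT livers were at 2.33 to 5.03 CPM (median 2.72, n = 6), and at 24 h the replicates were at 9.16, 14, 1.94 and 1.69 CPM. *Ccne1* was thus high in replicates 1 and 2 at 24 h, the pair with the lowest *Ccnd1* and *Ccnd2*, and in replicates 3 and 4 no higher than at 6 h. The log2 fold change was 1.76 (SE 0.52, edgeR FDR = 0.00876) at 6 h and 2.88 (SE 0.56, edgeR FDR = 0.000232) at 24 h, and both calls held without any single liver. Without 0 h replicate 2 the 6 h change was 2.77. At 24 h it was 1.01 (edgeR FDR = 0.379) without replicates 1 and 2, and 3.69 (edgeR FDR = 1.86e-06) without replicates 3 and 4.

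In SIRT1intKO livers *Ccne1* was at 0.263 to 0.955 CPM untreated (median 0.626, n = 6), at 3.66, 9.37, 10.2, 3.16 and 3.71 CPM at 6 h, and at 2.16 to 6.75 CPM at 24 h (median 5.08, n = 7). No liver after PHx overlapped with the untreated ones. The log2 fold changes were 3.23 (SE 0.56, edgeR FDR = 4.43e-05), or 9.37-fold, at 6 h and 2.97 (SE 0.54, edgeR FDR = 4.22e-05), or 7.81-fold, at 24 h. Neither call was lost without any single liver. Between 24 h and 6 h the difference was -0.26 (SE 0.47, edgeR FDR = 0.716) in SIRT1intKO livers and 1.13 (SE 0.53, edgeR FDR = 0.142) in WT livers, and the latter passed the test without 24 h replicate 3 (1.47, edgeR FDR = 0.0496) or without replicates 3 and 4 (1.96, edgeR FDR = 0.00438), and was at -0.75 (edgeR FDR = 0.494) without replicates 1 and 2. *Ccne2*, the second E-type cyclin, stayed under 1 CPM in all 34 livers, between 0.0938 and 0.986 CPM, which is 2 to 23 counts. No comparison of it passed the test, and at this depth its intervals were wide, from -0.45 to 1.58 on the log2 scale for WT livers at 24 h against 0 h and from -1.08 to 0.71 for SIRT1intKO livers. In WT livers at 24 h the change was -0.56 (edgeR FDR = 0.706) without replicates 1 and 2 and 1.23 (edgeR FDR = 0.0646) without replicates 3 and 4.

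Promoter sequence is shown for *Ccne1*, the gene with the largest rise, and for the kinases whose start site held a searched motif most often or matched an E2F site. The windows are those of RefSeq on GRCm38.p6, each 300 bases long and on the strand of the gene. The submitters' processing notes name GRCm39 for the deposited counts, so these positions do not apply to that build. Windows were at hand for *Ccnd3*, *Ccne1*, *Cdk2*, *Cdk4*, *Cdk6* and *Cdkn1b*, 6 of the 10 genes. They were searched on both strands for the E-box CACGTG bound by MYC and related factors, for the E2F sites TTTCCCGC, TTTGGCGC, TTTCGCGC and TTTGCCGC, for the AP-1 site TGACTCA, for the cAMP response element TGACGTCA and for the CCAAT box. The window of *Cdk4* (chr10:127063285-127063584, plus strand) held 4 E-boxes, in capitals, where 7.15% of all 32851 RefSeq windows held at least 1 and 0.0244% held 4 or more. The window of *Cdk2* (chr10:128705002-128705301, minus strand) held 1 E2F site on the opposite strand, in capitals, as 2.26% of the windows did, and 1 CCAAT box. The window of *Ccne1* (chr7:38107441-38107740, minus strand) held none of these letters and is printed without capitals.
*Cdk4*: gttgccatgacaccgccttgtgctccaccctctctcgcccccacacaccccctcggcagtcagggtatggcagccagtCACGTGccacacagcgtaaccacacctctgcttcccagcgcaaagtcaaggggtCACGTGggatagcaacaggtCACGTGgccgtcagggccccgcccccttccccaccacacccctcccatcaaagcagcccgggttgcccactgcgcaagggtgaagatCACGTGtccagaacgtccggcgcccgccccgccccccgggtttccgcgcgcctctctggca
*Cdk2*: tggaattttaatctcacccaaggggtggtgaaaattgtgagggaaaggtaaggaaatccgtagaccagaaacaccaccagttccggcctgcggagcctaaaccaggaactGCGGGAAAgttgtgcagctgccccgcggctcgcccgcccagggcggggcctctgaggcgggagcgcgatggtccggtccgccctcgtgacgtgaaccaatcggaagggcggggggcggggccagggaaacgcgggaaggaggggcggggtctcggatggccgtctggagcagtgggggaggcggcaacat
*Ccne1*: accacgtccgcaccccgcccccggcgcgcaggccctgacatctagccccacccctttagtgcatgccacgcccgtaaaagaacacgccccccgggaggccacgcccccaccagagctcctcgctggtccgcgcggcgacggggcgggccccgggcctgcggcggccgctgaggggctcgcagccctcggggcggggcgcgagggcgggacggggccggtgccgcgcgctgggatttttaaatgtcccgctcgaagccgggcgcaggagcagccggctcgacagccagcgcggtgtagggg
A match of letters is a description of the window and not of a factor's binding, and no binding was measured in these livers. The window of *Cdk6* held 1 E-box, that of *Cdkn1b* held 3 CCAAT boxes, and of the 2 windows of *Ccnd3* 1 held a CCAAT box.

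*Cdk4*, the partner of the D-type cyclins in most cells, moved little but with little spread. In WT livers it was at 24.9 to 31 CPM untreated (median 26.4, n = 6), at 26.6 to 40.9 CPM at 6 h (median 36.3, n = 6), and at 32.7, 35.5, 30.3 and 29.3 CPM at 24 h. At 6 h, 5 of 6 livers lay above every untreated one, and at 24 h 2 of 4. It rose at 6 h by 0.38 on the log2 scale (SE 0.10, edgeR FDR = 0.00226), and the 24 h change was 0.21 (SE 0.11, edgeR FDR = 0.122), 0.11 (edgeR FDR = 0.708) without 24 h replicates 1 and 2 and 0.32 (edgeR FDR = 0.0501) without replicates 3 and 4. In SIRT1intKO livers it was at 23.2 to 31.5 CPM untreated (median 27.5, n = 6), at 35.3, 39.6, 33, 32 and 36.2 CPM at 6 h, and at 31.3 to 37.3 CPM at 24 h (median 34.7, n = 7). The 6 h livers did not overlap with the untreated ones, and 6 of 7 livers at 24 h lay above them. The rises were 0.36 (SE 0.10, edgeR FDR = 0.00553), or 1.28-fold, and 0.32 (SE 0.09, edgeR FDR = 0.00474), or 1.25-fold. All 3 of these calls held without any single liver.

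*Cdk6*, the other partner of the D-type cyclins, dipped and then rose. In WT livers it was at 8.73 to 15.2 CPM untreated (median 12.9, n = 6), at 4.92 to 10.6 CPM at 6 h (median 7.91, n = 6), and at 37.8, 24.8, 14.3 and 9.56 CPM at 24 h. Again replicates 1 and 2 stood above every other WT liver and replicates 3 and 4 lay among the untreated ones. The change was -0.69 (SE 0.25, edgeR FDR = 0.0306) at 6 h, a call that 5 of 12 fits without 1 liver lost (0 h replicate 1, 3 or 5, 6 h replicate 2 or 3), at log2 fold changes of -0.68 to -0.61. It was 0.76 (SE 0.27, edgeR FDR = 0.0301) at 24 h against 0 h and 1.45 (SE 0.28, edgeR FDR = 0.00059) against 6 h. The 24 h call against 0 h was lost without 24 h replicate 1 (0.36, edgeR FDR = 0.344) or 2 (0.69, edgeR FDR = 0.0967) and without 0 h replicate 2 (0.67, edgeR FDR = 0.0649) or 4 (0.74, edgeR FDR = 0.0513). Without both 24 h replicates 1 and 2 the direction turned, at -0.09 (edgeR FDR = 0.919), and the change from 6 h was 0.60 (edgeR FDR = 0.19). Without replicates 3 and 4 the changes were 1.31 (edgeR FDR = 0.000172) and 2.02 (edgeR FDR = 1.87e-06).

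In SIRT1intKO livers *Cdk6* was at 12.1 to 15.7 CPM untreated (median 14.2, n = 6), at 6.41, 11, 17.5, 9.71 and 10.3 CPM at 6 h, and at 11.2 to 30.7 CPM at 24 h (median 22.2, n = 7). At 24 h, 6 of 7 livers exceeded every untreated liver and every liver at 6 h, and the seventh, replicate 5, was below the untreated ones. *Cdk6* rose from 6 h to 24 h by 0.99 (SE 0.26, edgeR FDR = 0.00492), a call that held without any single liver. Against 0 h it rose by 0.64 (SE 0.24, edgeR FDR = 0.0259), and the test was missed without 0 h replicate 3 or 5 or 24 h replicate 1 or 4, at log2 fold changes of 0.54 to 0.61. The dip at 6 h did not pass the test (-0.35, SE 0.26, edgeR FDR = 0.306). Markers of other cells also changed at 24 h. Of all genes, 26.2% rose and 24% fell against 0 h in SIRT1intKO livers, and 19.5% and 14.6% in WT livers. Neutrophil markers were higher: all 6 that could be tested rose in SIRT1intKO livers against 0 h, with sums of 22.9 to 955 CPM against 4.67 to 21.1 CPM, and 4 of 6 rose in WT livers, with 7.72 to 112 CPM against 7.27 to 23 CPM. *Ly6g*, the defining neutrophil marker, was at 0 in every untreated SIRT1intKO liver. In WT replicates 1 to 4 the neutrophil sums were 112, 94.6, 13.9 and 7.72 CPM, the same order as *Cdk6*. The split between the WT pairs was not particular to *Cdk6*. In these livers *Ccne1* was at 9.16, 14, 1.94 and 1.69 CPM and *Cdk2* at 13.3, 16.7, 9.64 and 7.42 CPM. SIRT1intKO replicate 5 had the lowest sum of its group, 22.9 CPM, and its lowest *Cdk6*, 11.2 CPM, and *Ccne1*, 2.16 CPM. The highest values were in different livers: replicate 2 had 955 CPM of neutrophil markers and 24.8 CPM of *Cdk6*, replicate 4 had 123 and 30.7 CPM. *Ccnd1* had another order than the sums. WT replicate 2 had 6.86 CPM of *Ccnd1*, WT replicate 4 had 66.2 CPM, and SIRT1intKO replicate 2 had the lowest of its group, 64.1 CPM. Of 7 monocyte and macrophage markers, 5 rose and 1 fell in SIRT1intKO livers at 24 h against 0 h, with sums of 54 to 230 CPM against 60.5 to 131 CPM. In WT livers 3 rose and 3 fell, with 45.6 to 77 CPM against 56.5 to 95.5 CPM, and 2 were higher in SIRT1intKO than in WT livers at 24 h. None of them was at 0 throughout a group. Of the 7 hepatocyte markers, 3 fell and 0 rose at 24 h in each genotype, with sums of 64700 to 74700 CPM and 30500 to 41700 CPM in WT livers and of 57100 to 80200 CPM and 37900 to 72500 CPM in SIRT1intKO livers at 0 h and 24 h. The part of these cells in the results was not tested.

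*Cdk2*, the kinase of cyclin E, was at 6.02 to 10.4 CPM in untreated WT livers (median 9.26, n = 6), at 5.48 to 10.7 CPM at 6 h (median 6.65, n = 6), and at 13.3, 16.7, 9.64 and 7.42 CPM at 24 h. The 24 h replicates 1 and 2 exceeded every other WT liver. *Cdk2* rose from 6 h to 24 h by 0.73 (SE 0.18, edgeR FDR = 0.00678), but not without 24 h replicate 2 (0.53, edgeR FDR = 0.0587) or without replicates 1 and 2 (0.27, edgeR FDR = 0.452). The changes from 0 h were -0.32 (SE 0.17, edgeR FDR = 0.133) at 6 h and 0.41 (SE 0.18, edgeR FDR = 0.0833) at 24 h. The first passed without 6 h replicate 1 (-0.49, edgeR FDR = 0.0187) and the second without 24 h replicate 3 (0.51, edgeR FDR = 0.0422), replicate 4 (0.58, edgeR FDR = 0.0128) or both (0.78, edgeR FDR = 0.00143), and was -0.05 (edgeR FDR = 0.935) without replicates 1 and 2. In SIRT1intKO livers it ran from 6.29 to 9.23 CPM over all 18 livers, with overlapping groups and no change past the test at either time.

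*Cdkn1b* and *Rb1*, the brakes of G1, passed the test in no comparison of the fit to all livers. *Cdkn1b* was at 11.7 to 21.5 CPM untreated and 12.9 to 17.4 CPM at 6 h in WT livers, with medians of 15.2 and 14.5, and at 24.7, 16.7, 15.9 and 16.6 CPM at 24 h. In SIRT1intKO livers the medians were 16.5, 16.4 and 15.1 CPM at 0, 6 and 24 h. The groups overlapped in every comparison with 0 h, and its largest change from 0 h was 0.24 (95% interval -0.08 to 0.57) in WT livers at 24 h, with 0.06 (edgeR FDR = 0.914) without 24 h replicates 1 and 2 and 0.42 (edgeR FDR = 0.082) without replicates 3 and 4. Against 6 h, *Cdkn1b* passed in WT livers without 24 h replicates 3 and 4 (0.52, edgeR FDR = 0.0451). *Rb1* was at 2.86 to 7.16 CPM in the 34 livers. Its largest change was -0.35 (95% interval -0.72 to 0.02, edgeR FDR = 0.14) in WT livers at 24 h, with -0.40 (edgeR FDR = 0.364) and -0.27 (edgeR FDR = 0.343) without either pair, and that in SIRT1intKO livers was -0.31 (95% interval -0.63 to 0.00, edgeR FDR = 0.0911), which passed the test without 24 h replicate 4 (-0.43, edgeR FDR = 0.0218).

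SIRT1intKO and WT livers were then compared at each time, which asks whether the loss of intestinal SIRT1 changes the G1 genes of the liver. At 0 h and at 6 h 0 of the 10 genes passed edgeR's test, 0 had an unadjusted p under 0.05 (1.07% and 6.52% of all genes had one) and DESeq2 called 0, where edgeR called 0% of all genes at both times and DESeq2 called 6 and 9 genes. The widest 95% intervals at 0 h were those of *Ccne1*, from -1.67 to 0.68, and of *Ccne2*, from -0.76 to 1.12, and the narrowest that of *Cdk4*, from -0.20 to 0.19. The largest estimate at 6 h was that of *Ccne1*, 0.97 (95% interval -0.05 to 1.99, edgeR FDR = 0.764). *Cdk6* was then at 0.48 (-0.06 to 1.02, edgeR FDR = 0.774). At 24 h edgeR again called 0 of 10, against 5.81% of all genes, with 4 of the 10 and 23.4% of all genes at an unadjusted p under 0.05, and DESeq2 called 3, where it called 1307 of all genes and edgeR 870. *Ccnd1* was higher in 6 of 7 SIRT1intKO livers than in every WT liver, with a log2 fold change of 1.35 (95% interval 0.31 to 2.38, edgeR FDR = 0.104, DESeq2 FDR = 0.0499). *Ccnd3* was at -0.43 (-0.72 to -0.15, edgeR FDR = 0.0559, DESeq2 FDR = 0.0392) and *Cdk2* at -0.54 (-0.90 to -0.18, edgeR FDR = 0.0598, DESeq2 FDR = 0.0436). *Cdkn1b* was at -0.41 (-0.72 to -0.09, edgeR FDR = 0.107), and the other 6 genes had intervals that include 0. Without SIRT1intKO replicate 5, edgeR called *Ccnd3* (-0.53, FDR = 0.00766) and *Cdk2* (-0.55, FDR = 0.0498), without WT replicate 1 it called *Ccnd3* (-0.58, FDR = 0.0132), and without WT replicate 3 or 4 *Cdk2* (-0.66 and -0.71, FDR = 0.0363 and 0.0189).

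Which genes edgeR called between the genotypes at 24 h depended on the WT pair that was kept. The pairs were chosen after the livers had been seen, so a call in these fits is not evidence of a difference. The fit to all livers called 0 of 10 genes. Without WT replicates 1 and 2, edgeR called *Ccnd3* lower (-0.63, FDR = 0.00853) and *Cdk6* higher (0.87, FDR = 0.0426) in SIRT1intKO livers, and *Ccnd1* was at 0.83 (FDR = 0.329). Without WT replicates 3 and 4, it called *Ccnd1* (2.14, FDR = 0.0313) and *Ccnd2* (1.16, FDR = 0.00402) higher and *Cdk2* (-0.93, FDR = 0.00109) and *Cdkn1b* (-0.60, FDR = 0.0302) lower. No gene was called under both. *Ccnd1* kept a positive sign and *Ccnd3*, *Cdk2* and *Cdkn1b* a negative sign in both, whereas *Ccnd2*, *Ccne1*, *Ccne2*, *Cdk4*, *Cdk6* and *Rb1* changed sign. The interaction term, which sets the change from 0 h in SIRT1intKO livers against that in WT livers, was called by edgeR and by DESeq2 for 0 of 10 genes at both times, where edgeR called 0% and 0.00668% of all genes, or 0 and 1 genes, and DESeq2 2 and 117 genes. At 6 h 0 of the 10 had an unadjusted p under 0.05, against 3.05% of all genes, and at 24 h 1 of 10, against 12.7%, which was *Ccnd3* with -0.55 (SE 0.19, edgeR FDR = 0.228). It passed without SIRT1intKO 24 h replicate 5 (-0.65, edgeR FDR = 0.048) or without WT 24 h replicates 1 and 2 (-0.74, edgeR FDR = 0.0267), and *Ccnd2* passed without WT 24 h replicates 3 and 4 (1.17, edgeR FDR = 0.0264). The interaction of *Ccnd1* at 24 h was 1.25 (95% interval -0.12 to 2.62, edgeR FDR = 0.44), and that of *Ccne1* at 6 h was 1.47 (95% interval -0.09 to 3.03).

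**Figure D3:**
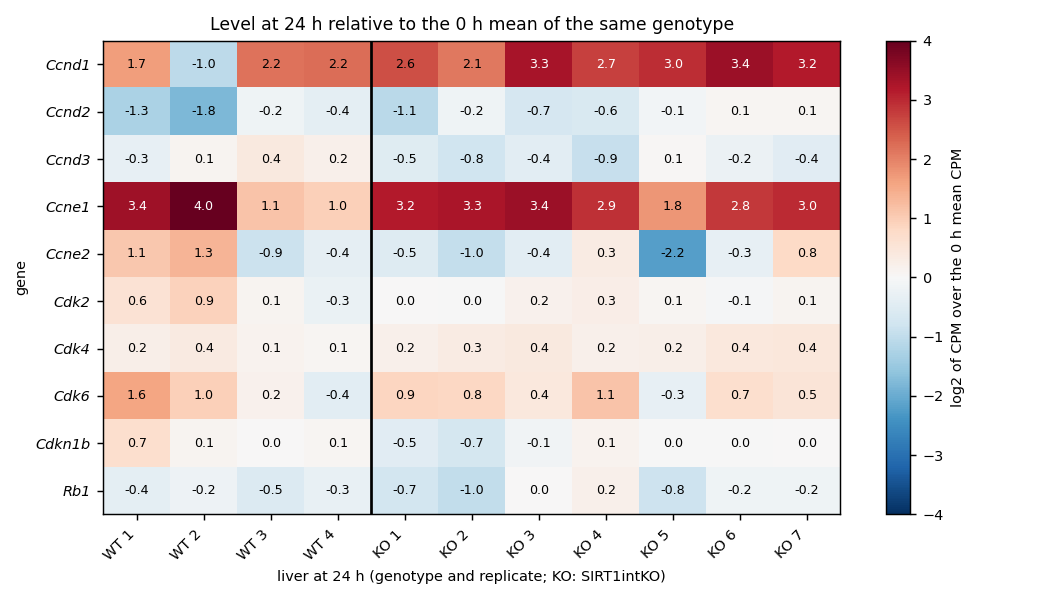
Log2 of each gene's CPM over the 0 h mean of the same genotype (colour and printed value) for each gene (rows) in each 24 h liver (columns; KO stands for SIRT1intKO). *Ccnd1* is above 0 in all 7 SIRT1intKO livers and in 3 of 4 WT livers, and WT replicates 1 and 2 differ from 3 and 4 in *Ccne1*, *Ccne2*, *Ccnd2*, *Cdk2* and *Cdk6*.

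**Figure D4:**
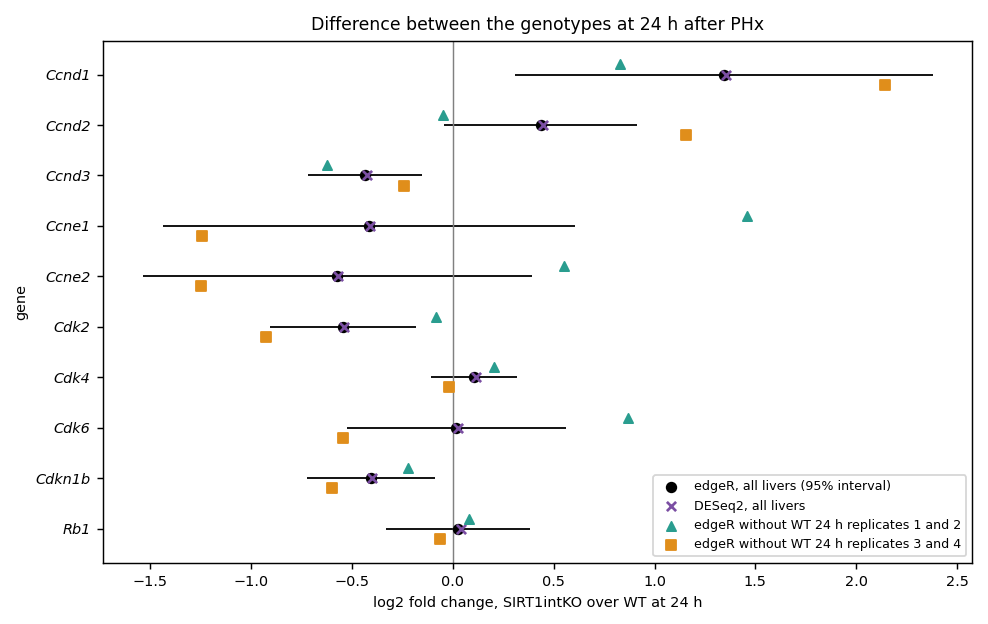
Log2 fold change of SIRT1intKO over WT livers at 24 h (x axis) for each gene (y axis) from edgeR with its 95% interval, from DESeq2, and from edgeR without either pair of WT livers. Symbols for *Ccne1* and *Cdk6* fall on both sides of 0, those for *Ccnd1* all lie above 0 and those for *Ccnd3*, *Cdk2* and *Cdkn1b* all below.

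The rest of the pathway was followed in 4 lists of genes. Their counts stand against the share of all genes that rose and fell, which was 18.9% and 18.5% in WT livers at 6 h, 19.5% and 14.6% at 24 h, 20.9% and 17.6% in SIRT1intKO livers at 6 h and 26.2% and 24% at 24 h. Of the other inhibitors of cyclin-dependent kinases, 5 of 6 could be tested, and 0 rose and 1 fell in WT livers at 6 h, 0 changed at 24 h, and in SIRT1intKO livers 0 rose and 1 fell at 6 h and 2 rose and 1 fell at 24 h, when 50.2% of all genes passed. The 2 that rose were *Cdkn1a*, the p53 target p21, and *Cdkn2b*, the CDK4 and CDK6 inhibitor p15. *Cdkn1a* was at 58.4 ± 22.1 CPM (SD, n = 6) in untreated and 120 ± 35 CPM (n = 7) in 24 h SIRT1intKO livers, and rose by 1.04 on the log2 scale (SE 0.31, edgeR FDR = 0.00648). In WT livers it was at 80.1 ± 33.3 CPM (n = 6) untreated and at 126 ± 64 CPM (n = 4) at 24 h, which did not pass the test. Between the genotypes at 24 h *Cdkn1a* did not pass the test either. *Cdkn2b* was very low, at 0.0749 ± 0.0639 CPM (n = 6) and 0.647 ± 0.278 CPM (n = 7), with a log2 fold change of 2.99 (SE 0.61, edgeR FDR = 0.00017). *Cdkn2b* also differed between the genotypes at 24 h, where the WT livers were at 0.125 ± 0.0572 CPM (n = 4), by 2.32 (SE 0.64, edgeR FDR = 0.0301). That call was lost without SIRT1intKO replicate 3 or 7, without WT replicate 2 or 4, without either WT pair, with every gene of at least 1 count, with the replicate number as a block and in a fit to the compared groups alone, at log2 fold changes that stayed between 2.10 and 2.52 when single livers were left out. It rose from 6 h to 24 h in SIRT1intKO livers (1.55, SE 0.56, edgeR FDR = 0.0365), a call lost in 5 of 12 fits without 1 liver, namely 6 h replicate 1 or 4 and 24 h replicate 2, 3 or 7, and also with every gene of at least 1 count, with the block and in the fit to the compared groups alone.

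Of 12 pocket proteins and E2F factors with their partners, 3 rose and 3 fell in WT livers at 6 h, and 3 rose and 2 fell at 24 h. In SIRT1intKO livers 4 rose and 3 fell at 6 h, and 3 rose and 4 fell at 24 h, against 26.2% and 24% of all genes. *E2f1*, an activator of S-phase genes, was at 2.92 ± 0.607 CPM (n = 6) in untreated WT livers and fell at 6 h by 1.75 (SE 0.41, edgeR FDR = 0.00121) in WT and by 2.18 (SE 0.45, edgeR FDR = 0.000332) in SIRT1intKO livers. *E2f3*, another activator, rose in SIRT1intKO livers at 6 h (1.11, edgeR FDR = 0.00186) and 24 h (1.04, edgeR FDR = 0.00121) and in WT livers at 24 h (1.22, edgeR FDR = 0.0016), the last not without WT replicates 1 and 2. *E2f2* rose from 6 h to 24 h by 1.82 in WT livers (edgeR FDR = 0.00687) and by 2.54 in SIRT1intKO livers (edgeR FDR = 0.000242), calls that held without any single liver and without either WT pair. The repressor *E2f7* fell in SIRT1intKO livers at 6 h (-1.59, edgeR FDR = 0.00827) and 24 h (-1.63, edgeR FDR = 0.00172). It also fell in WT livers at 24 h (-1.54, edgeR FDR = 0.0182), a call lost without 24 h replicate 2 and without either pair. These genes were low: *E2f7* had group means of 0.274 to 0.886 CPM, and *E2f2* of 0.438 and 0.258 CPM in WT and SIRT1intKO livers at 6 h. The repressor *E2f8* fell in SIRT1intKO livers at 24 h (-2.06, edgeR FDR = 0.00138) and rose in WT livers at 6 h (1.33, edgeR FDR = 0.0386). The rise was lost without 0 h replicate 1, 3, 5 or 6 or 6 h replicate 1, 5 or 6. It was also lost with every gene of at least 1 count and with the replicate number as a block.

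Of 8 genes for CDK activation and the turnover of p27, 2 rose and 2 fell in WT livers at 6 h, and 3 rose and 1 fell at 24 h. In SIRT1intKO livers 3 rose and 2 fell at 6 h, and 5 rose and 0 fell at 24 h, against 26.2% and 24% of all genes. *Cdc25a*, the phosphatase that activates CDK2, rose in all 4 comparisons with 0 h, and no call was lost without any single liver or without either WT pair. In WT livers its log2 fold change was 1.28 (SE 0.28, edgeR FDR = 0.000556) at 6 h and 2.14 (SE 0.30, edgeR FDR = 5.27e-06) at 24 h. In SIRT1intKO livers it was 1.53 (SE 0.29, edgeR FDR = 0.00011) at 6 h and 1.05 (SE 0.27, edgeR FDR = 0.00177) at 24 h. *Cks1b*, the cofactor that lets the SKP2 ligase recognise p27, rose in SIRT1intKO livers at 6 h (1.2, edgeR FDR = 0.00234) and 24 h (1.48, edgeR FDR = 9.16e-05), and in WT livers at 24 h (1.52, edgeR FDR = 0.00053), the last not without WT replicates 1 and 2. *Cks2* of the same list fell at 6 h in each genotype, calls that held without any single liver. It went from 11.8 ± 1.42 to 5.72 ± 2.99 CPM in WT and from 10.8 ± 1.17 to 5.34 ± 2.1 CPM in SIRT1intKO livers. From 6 h to 24 h *Cks2* rose in each genotype. In WT livers that call was lost without 24 h replicate 2, without replicates 1 and 2 and in the fit to the compared groups alone.

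Of 20 S-phase genes driven by E2F, 19 could be tested. At 6 h 0 rose and 4 fell in each genotype, and at 24 h 1 rose and 1 fell in WT livers and 7 rose and 2 fell in SIRT1intKO livers, where 19.5% and 14.6% and 26.2% and 24% of all genes did. From 6 h to 24 h 3 rose in WT livers and 9 in SIRT1intKO livers, where 10% and 13.2% of all genes did, and 0 fell, where 6.43% and 14.4% of all genes did. *Mcm5*, a subunit of the replicative helicase, was at 1.21 ± 0.443 CPM (n = 6), 0.914 ± 0.211 CPM (n = 5) and 3.33 ± 1.85 CPM (n = 7) in SIRT1intKO livers at 0, 6 and 24 h, with a log2 fold change of 1.46 (SE 0.35, edgeR FDR = 0.000846) from 0 h to 24 h. From 6 h to 24 h it rose by 1.86 (edgeR FDR = 0.000586) in SIRT1intKO and by 1.71 (edgeR FDR = 0.00339) in WT livers, the latter also without either WT pair. *Tk1*, the thymidine kinase of the S phase, went the other way, from 17.7 ± 3.73 CPM (n = 6) in untreated to 2.33 ± 0.586 CPM (n = 6) in 6 h WT livers and from 15.1 ± 3.68 CPM (n = 6) in untreated to 1.72 ± 1.29 CPM (n = 7) in 24 h SIRT1intKO livers, with log2 fold changes of -2.93 (edgeR FDR = 1.34e-06) and -3.10 (edgeR FDR = 1.72e-07). It also fell in SIRT1intKO livers at 6 h, to 2.64 ± 0.603 CPM (n = 5). In WT livers at 24 h it fell to 4.18 ± 3.66 CPM (n = 4), a call lost without WT replicates 1 and 2. The median log2 fold change of the S-phase list was -0.34 and -0.42 at 6 h in WT and SIRT1intKO livers and -0.07 and 0.19 at 24 h, where the medians of all genes lay between 0.01 and 0.04. Between the genotypes edgeR called 0 of 19 S-phase genes at 24 h, with 2 at an unadjusted p under 0.05, and for the interaction at 24 h 0 of 19, with 0.

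**Figure D5:**
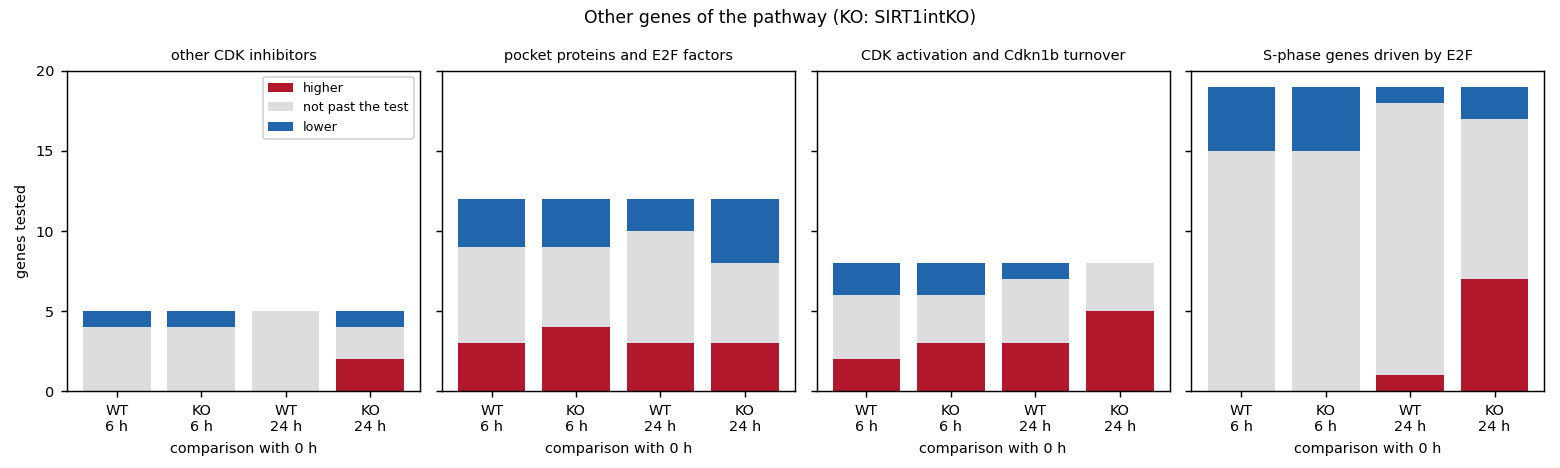
Number of genes tested (y axis) in each of 4 pathway lists that rose, fell or did not pass the test at 6 h and 24 h against 0 h in WT and SIRT1intKO livers (x axis; KO stands for SIRT1intKO). Of 19 S-phase genes, 7 rose in SIRT1intKO livers at 24 h, when 26.2% of all genes did, and 1 in WT livers, when 19.5% did.

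The genes whose log2 CPM most resembled that of each cyclin or kinase across the 34 livers were found by Pearson correlation, among genes with a mean of at least 1 CPM. The livers share genotypes and times, so the correlations are descriptions. *Ccnd1* was followed most closely by *Cdc34* (r = 0.83), *Slc30a9* (0.819) and *Mlkl* (0.819). *Ccne1* was followed by *Tubb6* (0.95), *Osmr* (0.938), the receptor of oncostatin M, and *Tnfrsf12a* (0.933), the receptor of TWEAK. *Ccnd2* was followed by *Oit3* (0.864), *F8* (0.845) and *Elk3* (0.845), and *Ccnd3* by *Atpaf2* (0.834), *Eral1* (0.827) and *Ppp6r2* (0.821). *Cdk4* was followed by *Pofut2* (0.847), *Poglut2* (0.834) and *Cntnap1* (0.833), *Cdk6* by *Pgp* (0.906), *Pgd* (0.879) and *Zfp385a* (0.879), and *Cdk2* by *Fgfrl1* (0.762), *Iqcb1* (0.761) and *Sppl3* (0.753). *Ccne2*, which is near the lower limit of these counts, was followed by *Rad54l2* (0.801), *Gm37206* (0.692) and *Cdk13* (0.688). *Cdkn1b* was followed by *Klhl21* (0.731), *Znrf3* (0.729) and *Zfp553* (0.717), and *Rb1* by *Rgs12* (0.694), *Ncoa1* (0.638) and *Shprh* (0.637).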

How the data were processed

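Libraries of polyA RNA from 34 whole livers were prepared with a stranded kit and sequenced as paired ends. The authors deposited 1 table of expected counts per gene, estimated by Salmon after alignment with STAR in an nf-core pipeline and merged over livers, with no normalization. The submitters' processing notes name GRCm39. Of the 35 columns of counts, 1 matched no labelled liver and was not used. The symbols had lost their x, and 1255 of them were restored by gene identifier from GENCODE vM21. Lines without a gene identifier held 0% of the counts.

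Expected counts, of which 4.97% were not whole, were rounded. In R 4.3.3, edgeR 4.0.16 was used with filterByExpr, TMM scaling and 1 mean per genotype and time fitted to all 34 livers, and checked on simulated data. SEs were taken from the quasi-likelihood F statistic. Log2 CPM values carry a prior count of 2. Alternatives were DESeq2 1.42.0, other scalings and filters, a replicate block, fits to the compared groups alone, the study's fold threshold (absolute log2 fold change over 1), and fits without single livers. Exon lengths came from GENCODE vM21. No 2 livers of a group were closer than sampling noise allows for duplicates: the smallest chi-square per gene was 15.22.

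All 10 genes were named in every comparison. Genes of the pathway lists were named only where they passed the test with an absolute log2 fold change over 1, and each gene's most alike genes were the 3 with the highest correlation. The genes and lists were chosen with earlier results of these data known.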

Additional observations from a re-analysis of the deposited data

Results flagged for a closer look

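In 5 of the 60 sets of livers formed by the 10 genes and 6 groups, 1 liver stood apart from the rest of its group by Dixon's test, where chance gives about 1 in 20, or 3 of 60. *Ccnd1* was at 96.4 CPM in WT 6 h replicate 2, where the next liver was at 29 CPM. *Ccne1* was at 3.06 CPM in WT 0 h replicate 2, where the next was at 0.7 CPM, and at 5.03 CPM in WT 6 h replicate 1, where the next was at 3.13 CPM. *Cdk2* was at 10.7 CPM in the same WT 6 h replicate 1, where the next was at 7.36 CPM. *Cdkn1b* was at 24.7 CPM in WT 24 h replicate 1, where the next was at 16.7 CPM.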

How the results depend on the processing

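Of 1480 values from fits without 1 liver, 1361 kept their direction and their side of the threshold, 33 lost and 12 gained the call and 74 changed sign without a call. Without 1 liver, the number of the 10 genes that passed ran from 2 to 5 in WT livers at 6 h and at 24 h against 0 h, from 3 to 4 and from 4 to 5 in SIRT1intKO livers, from 1 to 3 for 24 h against 6 h in either genotype, from 0 to 2 between the genotypes at 24 h, from 0 to 1 for the interaction at 24 h, and was 0 for the genotypes at 0 h and 6 h and for the interaction at 6 h. Of 818 values under the other alternatives, 753 kept direction and side, 16 lost and 16 gained the call, 32 changed sign without a call and 1 called value reversed, *Cdk6* in WT livers at 24 h against 0 h, at -0.0885 without WT replicates 1 and 2. With the study's fold threshold 2 genes passed in each comparison with 0 h and 1 in each of 24 h against 6 h. Fits to the compared groups alone gave 2 for WT livers at 24 h against 0 h and 1 against 6 h, where *Ccnd2* (-0.74), *Cdk6* (0.77) and *Cdk2* (0.75) were lost, and lost *Ccnd3* from 6 h to 24 h in SIRT1intKO livers (-0.40), as upper-quartile scaling did (-0.37). They gained *Ccnd3* in WT livers at 6 h (0.32). Keeping every gene with at least 1 count lost *Cdk6* in WT livers at 24 h (0.75) and *Ccnd2* in SIRT1intKO livers at 6 h (-0.60). DESeq2 gave 3 between the genotypes at 24 h. Without WT 24 h replicates 1 and 2 the counts were 2 between the genotypes at 24 h, 1 and 0 for WT livers at 24 h against 0 h and 6 h, and 1 for the interaction, and without replicates 3 and 4 they were 4, 5 against 6 h, and 1 for the interaction. The cause of these changes was not tested, beyond the fewer livers. With the replicate number as a block, 3, 3, 3 and 5 genes passed against 0 h and 2 and 2 for 24 h against 6 h; the calls of *Ccnd1* in WT livers at 6 h (1.18), *Cdk6* in WT livers at 24 h (0.69), *Ccnd2* in SIRT1intKO livers at 6 h (-0.56) and *Ccnd1* from 6 h to 24 h in SIRT1intKO livers (1.26) were lost. The numbers do not pair the livers: the median correlation of deviations was -0.00364 over 76 same-numbered pairs, and 2 of 34 livers correlated best with their own number. The share of all genes that passed is not given for the fits without livers, to the compared groups alone or with the block. Their counts cannot be set against it. No scaling moved the median of all genes by over 0.1. The depth limits what can be said of *Ccne2* and *Cdkn2b*, which were under 1 CPM. It also limits *E2f7*, whose group means were under 1 CPM, and *E2f2*, whose means at 6 h were.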
